A study of Homo sapiens with 12 samples.

Results

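Glycosaminoglycan chain synthesis and sulfation enzymes were followed in RNA-seq libraries of 4 lines derived from CWR22Rv1, a long-established human prostate carcinoma line grown from a relapsed xenograft. The members were fixed by name as enzymes and transporters of this pathway, and 44 of the 51 are listed among the 13951 genes of the deposited tables. The other 7 (XYLT1, EXTL1, HS6ST3, HS3ST1, HS3ST3A1, HS3ST3B1 and SULF2) were not analysed here. All 44 had a mean of at least 1 CPM (read counts scaled to the size of the library) over the 12 libraries.

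The 12 libraries came from 4 lines with 3 replicates each. Control cells expressed Cas9 with no guide RNA. LV-MEIS1 cells expressed exogenous MEIS1 from a lentivirus, and whether they also carried Cas9 is not given in the sources used here. HOXB13ko cells carried Cas9 and were targeted at HOXB13 with a guide, after which 6 knockout clones were mixed into 1 pool. HOXB13ko-LV-MEIS1 cells were that pool infected with the MEIS1 lentivirus. All lines were kept in puromycin and seeded 48 h before RNA was harvested. Each genotype was 1 derived line or pool, so the p-values measure the spread between cultures, which may be technical, and differences of derivation cannot be told apart from those of genotype.

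Proteoglycans are core proteins that carry long sulfated sugar chains, and the study of these cells is concerned with proteoglycans such as decorin. Chains start from a short linker of xylose, galactose and glucuronic acid built on a serine of the core protein. Heparan sulfate chains then grow by alternating glucuronic acid and N-acetylglucosamine, and chondroitin and dermatan sulfate chains by alternating glucuronic acid and N-acetylgalactosamine. Sulfotransferases and epimerases modify the chains, and the pattern they leave decides which growth factors and receptors bind. Cytosolic enzymes and Golgi transporters supply the nucleotide sugars and PAPS, the sulfate donor.

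The labels were checked by the targeted genes and by cell type markers. MEIS1 was 4.25 ± 0.202 CPM in Control and 47.4 ± 1.96 CPM in LV-MEIS1 (SD, n = 3), and 3.56 ± 0.118 and 29.7 ± 0.365 CPM in the libraries labelled HOXB13ko and HOXB13ko-LV-MEIS1. HOXB13 mRNA was 196 ± 17.1 CPM in Control and 327 ± 20.1 CPM in the libraries labelled HOXB13ko, so it was higher where the label gives a knockout. It was 151 ± 0.770 CPM in LV-MEIS1, lower than in Control (limma eBayes adjusted p = 4.9e-04), and 354 ± 25.1 CPM with both labels. The paper reports checking the loss of HOXB13 protein by western blot, also in each clone of the pool. The CPM of a gene does not show whether its transcript was edited, and directions with these libraries are given by label. All 9 luminal prostate markers were listed, and their summed level was 3289 to 3373 CPM in the Control libraries, 2448 to 2484 CPM in LV-MEIS1, 3442 to 3468 CPM in HOXB13ko and 3451 to 3557 CPM in HOXB13ko-LV-MEIS1. Of 7 fibroblast markers only COL1A1 and PDGFRB were listed, and their sum was 14.6 to 17.9 CPM in the Control libraries, 30.2 to 34.9 CPM in LV-MEIS1, 19.1 to 20.8 CPM in HOXB13ko and 16.2 to 18.9 CPM in HOXB13ko-LV-MEIS1. The higher sum in LV-MEIS1 was that of COL1A1 (14.5 ± 1.10 CPM in Control and 32.8 ± 2.46 CPM in LV-MEIS1), while PDGFRB was 1.41 ± 0.618 and 0.266 ± 0.0734 CPM. Of 3 endothelial markers 0 were listed. Whether these shifts bear on the enzyme levels was not tested. In bulk RNA, fewer cells expressing a gene and less of its RNA per cell cannot be told apart.

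The promoters of the enzymes that the results turn on are shown first, as the 250 bases before the annotated start (RefSeq, GRCh38.p14), each read 5′ to 3′ on the strand of its gene. CHSY1, DSEL and CHST13 were lower in LV-MEIS1, SLC35D1 was higher there, and CHST15 was higher in the libraries labelled HOXB13ko. Capitals mark TGACAG or its reverse complement CTGTCA, the core that MEIS proteins are known to prefer.
CHSY1, chr15:101252049-101252298, minus strand: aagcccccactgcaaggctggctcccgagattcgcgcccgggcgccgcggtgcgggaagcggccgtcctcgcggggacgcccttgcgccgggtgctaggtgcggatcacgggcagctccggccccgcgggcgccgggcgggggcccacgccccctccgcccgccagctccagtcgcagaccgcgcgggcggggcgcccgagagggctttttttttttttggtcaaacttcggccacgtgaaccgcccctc
DSEL, chr18:67516721-67516970, minus strand: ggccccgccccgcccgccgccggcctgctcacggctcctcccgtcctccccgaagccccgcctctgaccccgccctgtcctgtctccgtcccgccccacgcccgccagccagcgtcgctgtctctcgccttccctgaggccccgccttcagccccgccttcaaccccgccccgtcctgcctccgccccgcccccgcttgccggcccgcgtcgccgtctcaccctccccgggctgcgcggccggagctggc
CHST13, chr3:126523905-126524154, plus strand: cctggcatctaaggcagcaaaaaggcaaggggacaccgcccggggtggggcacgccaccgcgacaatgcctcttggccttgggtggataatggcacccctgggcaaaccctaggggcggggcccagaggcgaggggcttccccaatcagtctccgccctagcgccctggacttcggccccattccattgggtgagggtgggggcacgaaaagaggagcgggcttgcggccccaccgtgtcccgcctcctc
SLC35D1, chr1:67054149-67054398, minus strand: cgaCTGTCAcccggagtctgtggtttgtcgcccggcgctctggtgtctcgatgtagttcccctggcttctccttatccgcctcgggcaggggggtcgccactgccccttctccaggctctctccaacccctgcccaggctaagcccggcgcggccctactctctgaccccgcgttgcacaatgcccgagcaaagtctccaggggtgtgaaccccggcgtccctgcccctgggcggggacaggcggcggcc
CHST15, chr10:124093599-124093848, minus strand: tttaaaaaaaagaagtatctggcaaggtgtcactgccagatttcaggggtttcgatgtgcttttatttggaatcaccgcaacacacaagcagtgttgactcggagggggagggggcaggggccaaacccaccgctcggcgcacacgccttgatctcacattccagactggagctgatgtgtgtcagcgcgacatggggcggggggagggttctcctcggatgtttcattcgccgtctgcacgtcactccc

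Of these 5 promoters, SLC35D1 held TGACAG, on the opposite strand and 247 bases before the start. GC content was 80.0% for DSEL, 74.8% for CHSY1, 68.8% for SLC35D1, 67.6% for CHST13 and 55.6% for CHST15, with a median of 58.0% over all promoters. Promoters of 38 of the 44 members were matched by symbol, and both strands were searched. TGACAG was found in 4 of the 38 (10.5%: CHPF2, GLCE, SLC35D1 and UST), against 13.1% of all 27305 promoters of the same length. CCAATAAA, a site HOXB13 is known to prefer, was found in 0 of the 38 and in 0.927% of all promoters, and neither motif contains the other. A match in these letters is a description and does not show binding.

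Levels were first compared between enzymes in Control cells, as CPM per kilobase of the canonical transcript. Some of the supply genes stood highest. PAPSS1, one of the synthases of PAPS, was at 69.7 ± 1.14 (SD, n = 3). UGDH, which makes UDP-glucuronic acid, was at 57.9 ± 1.95 and SLC35B2, a Golgi transporter of PAPS, at 50.4 ± 5.36. The other supply genes ranged from IMPAD1 at 25.8 ± 2.66 down to PAPSS2, which catalyses the same reactions as PAPSS1, at 1.55 ± 0.172. FAM20B, the kinase that phosphorylates the linker xylose, was at 32.3 ± 0.940, and XYLT2, which starts the linker, at 6.03 ± 0.291.

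Among the heparan N-deacetylases and N-sulfotransferases, NDST1 was at 16.6 ± 1.28 CPM per kilobase, NDST2 at 4.05 ± 0.402 and NDST3 at 0.449 ± 0.00898. DSEL, a dermatan sulfate epimerase, was at 10.4 ± 1.17 and its paralog DSE at 1.32 ± 0.0795. CHST14, the dermatan 4-O-sulfotransferase, was at 16.4 ± 1.38, above the chondroitin 4-O-sulfotransferases CHST12 (1.76 ± 0.120), CHST13 (0.843 ± 0.00757) and CHST11 (0.519 ± 0.0200). The gap to CHST12 turns on the canonical lengths, 2175 bases for CHST14 and 15985 for CHST12, since in CPM they were 35.6 ± 3.01 and 28.2 ± 1.92. SULF1, which removes sulfate from heparan chains outside the cell, was lowest of all members, at 0.150 ± 0.0736. Levels per kilobase depend on the transcript chosen, and the canonical one was not checked in these cells.

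**Figure D1:**
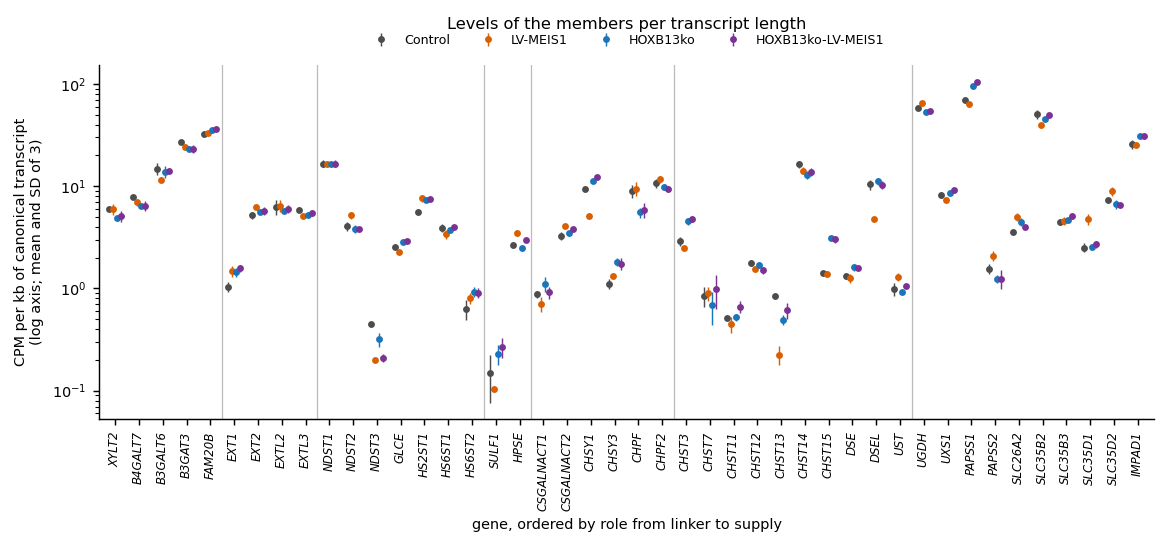
Mean CPM per kilobase of canonical transcript on a log axis for the 44 members, ordered by role and separated by grey lines, with the SD of 3 libraries as bars and the 4 groups in colour. PAPSS1, UGDH and SLC35B2 lie highest and SULF1 and NDST3 lowest in all 4 groups, with CHST13 (0.225) close to NDST3 (0.199) in LV-MEIS1.

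LV-MEIS1 was compared with Control to ask which of these enzymes changed with exogenous MEIS1 in cells not targeted at HOXB13. DSEL, CHSY1 and CHST13, 3 of the 16 listed enzymes of the chondroitin and dermatan branch, fell. In the same branch CSGALNACT2, which starts the chondroitin chain, rose by 0.31 ± 0.08 and UST, a uronyl 2-O-sulfotransferase, by 0.36 ± 0.12 (limma eBayes adjusted p = 0.00716 and 0.0235), and the other 11 passed neither test. DSEL, CHSY1 and CHST13 are the 3 of 44 members (6.82%) called by limma's treat test against a fold change of 1.5, where 3.99% of all genes were called, 1.75% higher and 2.24% lower. With limma's eBayes test against no change, 12 members were higher and 8 lower, 20 in all (45.5%), against 44.5% of all genes, 23.2% higher and 21.3% lower. The median log2 fold change of the members was -0.03, beside 0.01 for all genes, and the median size of the change was 0.21, beside 0.20. The eBayes share and both medians of the enzymes were near those of all genes.

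**Figure D2:**
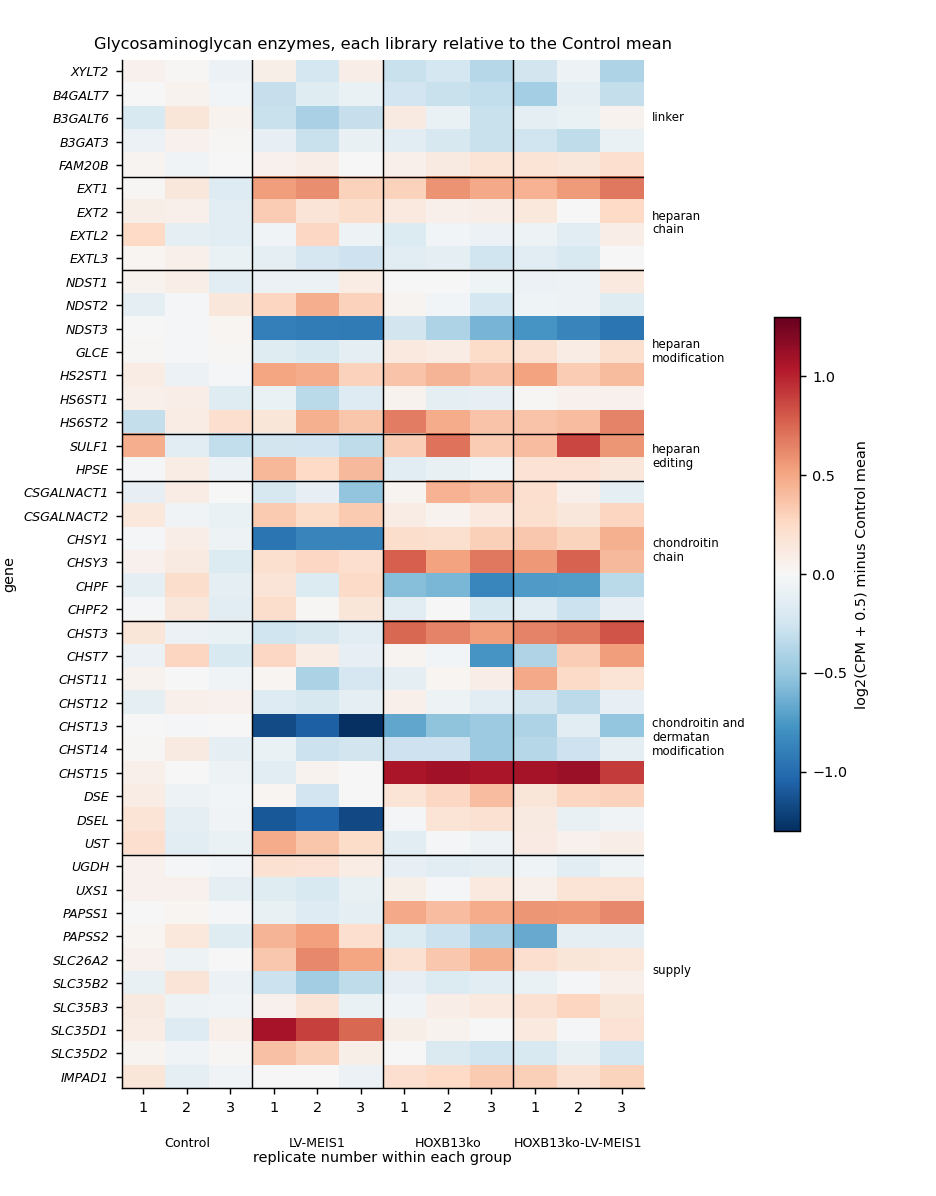
Heat map of log2(CPM + 0.5) minus the Control mean for the 44 members (rows, grouped by role) in the 12 libraries (columns, 3 per group). DSEL, CHSY1, CHST13 and NDST3 are blue and SLC35D1 is red in the LV-MEIS1 libraries, and CHST15, CHST3 and PAPSS1 are red in the libraries labelled HOXB13ko and HOXB13ko-LV-MEIS1.

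DSEL (ENSG00000171451, GRCh38 chromosome 18, 67506587 to 67516720, minus strand) converts glucuronic to iduronic acid in dermatan sulfate. It was 108, 87.5 and 92.7 CPM in Control and 44.2, 46.4 and 42.1 CPM in LV-MEIS1. With the knockout label it was 94.5, 108 and 109.8 CPM before MEIS1 and 104, 89.2 and 92.5 CPM with it. The 3 LV-MEIS1 libraries lay below all others, and the other 3 groups overlapped. The log2 fold change in LV-MEIS1 against Control was -1.11 ± 0.08 (SE; limma treat adjusted p = 4.6e-04). Its paralog DSE had a log2 fold change of -0.07 there and passed neither test. DSEL exons overlap the antisense gene DSEL-AS1, which was not analysed here, and the counting did not use strand.

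CHSY1 (ENSG00000131873, chromosome 15, 101175727 to 101252048, minus strand) is a chondroitin synthase that extends the chain. Control libraries had 43.3, 46.9 and 42.1 CPM and LV-MEIS1 libraries 22.6, 24.0 and 24.1 CPM. With the knockout label it was 51.7, 50.8 and 54.6 CPM before MEIS1 and 56.4, 54.0 and 60.9 CPM with it. The LV-MEIS1 libraries were lowest, and all other libraries lay above them. Its log2 fold change in LV-MEIS1 against Control was -0.89 ± 0.06 (SE; limma treat adjusted p = 0.00496). The other chain-extending enzymes did not follow it: CHSY3 differed by 0.23 ± 0.12, CHPF by 0.08 ± 0.14 and CHPF2 by 0.13 on the log2 scale, and none passed eBayes.

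Genes next to CHSY1 were lower as well. Of its 20 nearest listed genes averaging 5 CPM or more, 18 were lower in LV-MEIS1 than in Control, with a median log2 fold change of -0.48, and 4 lay below CHSY1 itself. There were 15 such genes before it and 5 after it, because CHSY1 lies near the end of chromosome 15. In HOXB13ko against Control the median of the same neighbours was 0.20. In HOXB13ko-LV-MEIS1 against LV-MEIS1 it was 0.70, with 18 of the 20 higher. For the 44 members, the median of up to 30 neighbours in LV-MEIS1 against Control ranged from -0.48 to 0.16, and CHSY1 gave the lowest. The neighbours of DSEL had a median of 0.14, with 19 of 30 higher and 0 below DSEL, and those of CHST13 had a median of -0.07, with 0 of 30 below it.

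**Figure D3:**
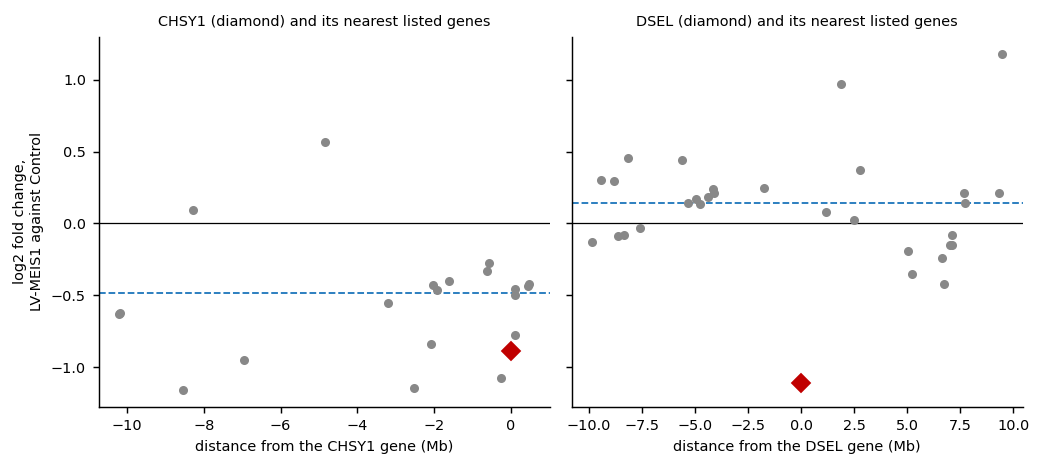
Log2 fold change in LV-MEIS1 against Control for CHSY1 (left) and DSEL (right), drawn as diamonds, and for their nearest listed genes averaging 5 CPM or more (points), by distance in megabases; the dashed line is the median of the neighbours. The line lies at -0.48 around CHSY1, with 18 of 20 neighbours below 0, and at 0.14 around DSEL, which lies below all 30 of its neighbours.

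CHST13 (ENSG00000180767, chromosome 3, 126524155 to 126543291, plus strand), a chondroitin 4-O-sulfotransferase, was the least abundant member by mean CPM. It was 1.63, 1.60 and 1.62 CPM in Control and 0.443, 0.516 and 0.333 CPM in LV-MEIS1, above the 0.105 to 0.175 CPM that 3 reads are worth at the estimated depths. With the knockout label it was 0.830, 0.977 and 1.03 CPM before MEIS1 and 1.10, 1.41 and 0.997 CPM with it, between the other groups. Its log2 fold change in LV-MEIS1 against Control was -1.19 ± 0.17 (SE; limma treat adjusted p = 0.0364). This call rested on every library compared. It was lost without any 1 of the 6 Control or LV-MEIS1 libraries (limma treat adjusted p = 0.0526 to 0.160), and without replicate 2 or 3 of HOXB13ko or replicate 1 of HOXB13ko-LV-MEIS1 (0.0543, 0.0510 and 0.0509). With the replicate number as a block the limma treat adjusted p was 0.0568. The eBayes adjusted p of limma was 5.6e-05.

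NDST3, a heparan N-deacetylase and N-sulfotransferase, was 2.61, 2.55 and 2.66 CPM in Control and 1.18, 1.15 and 1.14 CPM in LV-MEIS1. Its log2 fold change of -0.91 ± 0.14 (SE) was past limma's eBayes threshold (adjusted p = 1.6e-04) but missed treat (adjusted p = 0.376). NDST2 rose by 0.35 ± 0.09 (limma eBayes adjusted p = 0.00735), and NDST1, the most abundant of the family, was -0.02 ± 0.07 with a 95% interval from -0.17 to 0.13. Elsewhere in the heparan branch, 3 of the 4 chain-building enzymes passed eBayes, EXT1 (0.48 ± 0.12) and EXT2 (0.24 ± 0.07) higher and EXTL3 (-0.21 ± 0.07) lower. That test passed 44.5% of all genes, 23.2% higher and 21.3% lower. HS2ST1, the 2-O-sulfotransferase, rose by 0.43 ± 0.07 (limma eBayes adjusted p = 2.4e-04), and heparanase, HPSE, rose by 0.37 ± 0.08 (limma eBayes adjusted p = 0.00172). None of the 13 listed members of the heparan branch was called by treat, which called 3.99% of all genes.

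Supply genes moved in both directions in LV-MEIS1. SLC35D1 (ENSG00000116704, chromosome 1, 66999350 to 67054148, minus strand) carries UDP-glucuronic acid and UDP-N-acetylgalactosamine, the building blocks of chondroitin, into the endoplasmic reticulum. It was 16.6, 13.7 and 16.2 CPM in Control and 32.9, 29.0 and 26.3 CPM in LV-MEIS1. With the knockout label it was 16.3, 16.0 and 15.4 CPM before MEIS1 and 16.9, 15.3 and 17.7 CPM with it. All LV-MEIS1 libraries lay above all others. The log2 fold change of 0.90 ± 0.10 (SE) was past limma's eBayes threshold (adjusted p = 3.4e-06) and narrowly missed treat (adjusted p = 0.0565). Treat called it without replicate 1 of Control or replicate 3 of LV-MEIS1. It was the largest increase among the members. SLC26A2, the plasma membrane sulfate transporter, rose by 0.50 ± 0.08 (limma eBayes adjusted p = 1.8e-04), PAPSS2 by 0.40 ± 0.15, SLC35D2 by 0.26 ± 0.10 and UGDH by 0.16 ± 0.05. SLC35B2 fell by 0.35 on the log2 scale (limma eBayes adjusted p = 0.00115), from 94.9, 114 and 96.3 CPM to 83.6, 74.1 and 80.7 CPM. Of the 10 supply genes, 5 rose, 2 fell and 3 passed neither test. So 70.0% passed eBayes, against 44.5% of all genes, 23.2% higher and 21.3% lower.

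**Figure D4:**
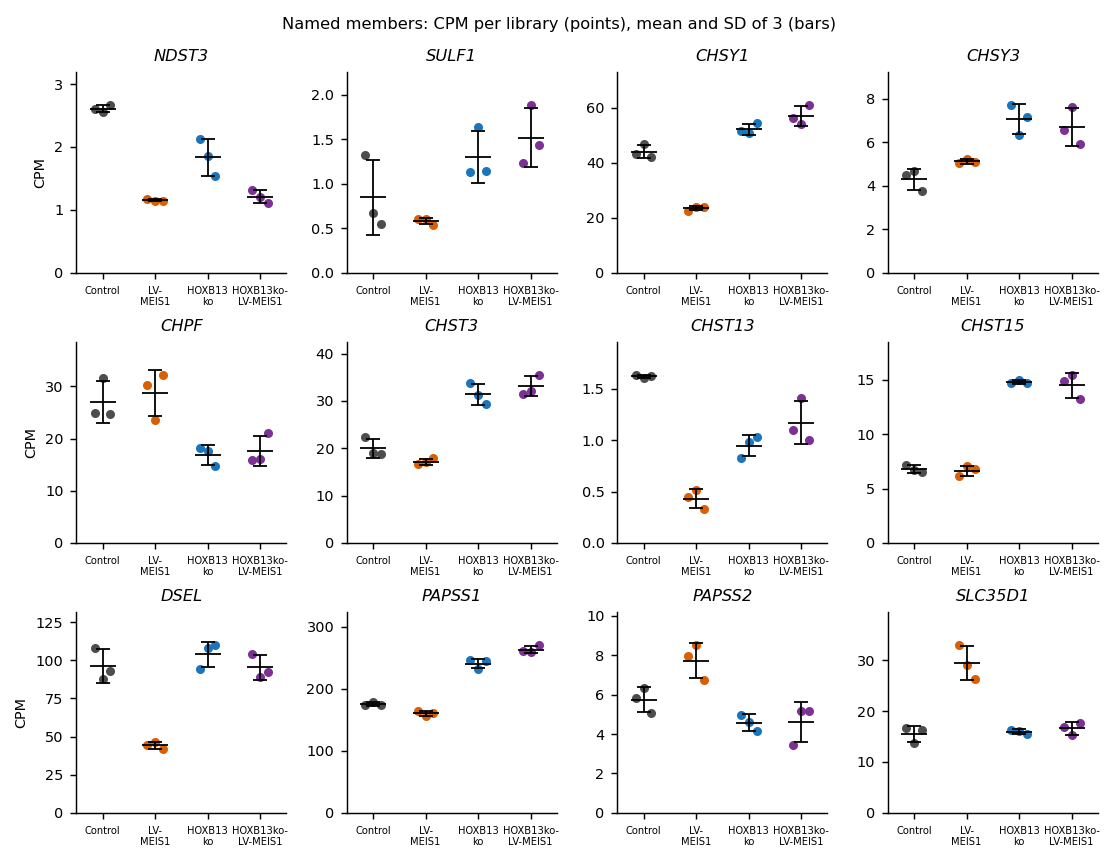
CPM in every library (points) with the mean and SD of 3 (bars) for the 12 members that were called or that passed eBayes with at least a 1.5-fold change in a pairwise comparison; every axis starts at 0. DSEL, CHSY1 and SLC35D1 in LV-MEIS1 lie apart from all other libraries, whereas CHST15, CHST3 and PAPSS1 are higher in both groups labelled HOXB13ko.

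HOXB13ko was compared with Control to ask what differed with the knockout label alone, in libraries whose HOXB13 mRNA was higher than in Control. CHST15 was the 1 member of 44 called by limma's treat (2.27%, against 1.41% of all genes, 0.652% higher and 0.760% lower). With limma's eBayes, 11 members were higher and 7 lower (40.9%), against 32.9% of all genes, 16.5% higher and 16.4% lower. The median log2 fold change was -0.01, beside 0.00 for all genes.

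CHST15 (ENSG00000182022, chromosome 10, 124007668 to 124093598, minus strand) adds a second sulfate to chondroitin units already sulfated at the 4-O position. It was 7.15, 6.74 and 6.48 CPM in Control and 14.8 ± 0.185 CPM in the libraries labelled HOXB13ko (SD, n = 3; lowest 14.7). The log2 fold change was 1.07 ± 0.09 (SE; limma treat adjusted p = 0.00438). In LV-MEIS1 it was 6.14, 7.03 and 6.77 CPM and in HOXB13ko-LV-MEIS1 14.9, 15.4 and 13.2 CPM. The groups split by knockout label with no overlap. The median of its 30 neighbours was 0.12, and all 30 lay below it.

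CHST3, the main chondroitin 6-O-sulfotransferase, followed the same split below the threshold of treat. It was 22.3, 18.9 and 18.7 CPM in Control and 33.7, 31.3 and 29.3 CPM in the libraries labelled HOXB13ko, a log2 fold change of 0.64 ± 0.08 (SE; limma eBayes adjusted p = 5.0e-05). CHSY3 rose by 0.66 ± 0.12, from 4.48, 4.67 and 3.74 CPM to 7.69, 6.35 and 7.16 CPM (limma eBayes adjusted p = 0.00102). CHPF, a chondroitin polymerizing factor, fell by 0.67 on the log2 scale, from 24.8, 31.6 and 24.7 CPM to 18.1, 17.6 and 14.7 CPM (limma eBayes adjusted p = 0.00240). TMEM198, whose exons overlap CHPF on the opposite strand, was 4.24 ± 1.16 CPM in Control and 1.02 ± 0.102 CPM in HOXB13ko (SD, n = 3), and the part of shared reads in the CHPF value was not tested.

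PAPSS1 rose by 0.45 ± 0.04 with the knockout label (limma eBayes adjusted p = 3.3e-06), from 174, 178 and 173 CPM to 246, 232 and 244 CPM. Its paralog PAPSS2 was -0.29 ± 0.15 and passed neither test. IMPAD1, the Golgi phosphatase that clears the by-product of sulfation, rose by 0.27 ± 0.06 and SLC26A2 by 0.34 ± 0.08, also by eBayes. The linker enzymes XYLT2 (-0.30 ± 0.10), B4GALT7 (-0.29 ± 0.09) and B3GAT3 (-0.22 ± 0.08) fell by eBayes (limma adjusted p = 0.0319, 0.0285 and 0.0424), and B3GALT6 and FAM20B passed neither test. In this comparison eBayes passed 32.9% of all genes, 16.5% higher and 16.4% lower. The 30 neighbours of each had a median of 0.00 for XYLT2, -0.15 for B4GALT7 and -0.21 for B3GAT3. In the heparan branch EXT1 (0.45 ± 0.12), HS2ST1 (0.40 ± 0.07) and HS6ST2 (0.51 ± 0.16) rose and NDST3 fell by 0.42 on the log2 scale, to 2.13, 1.85 and 1.54 CPM, all by eBayes.

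**Figure D5:**
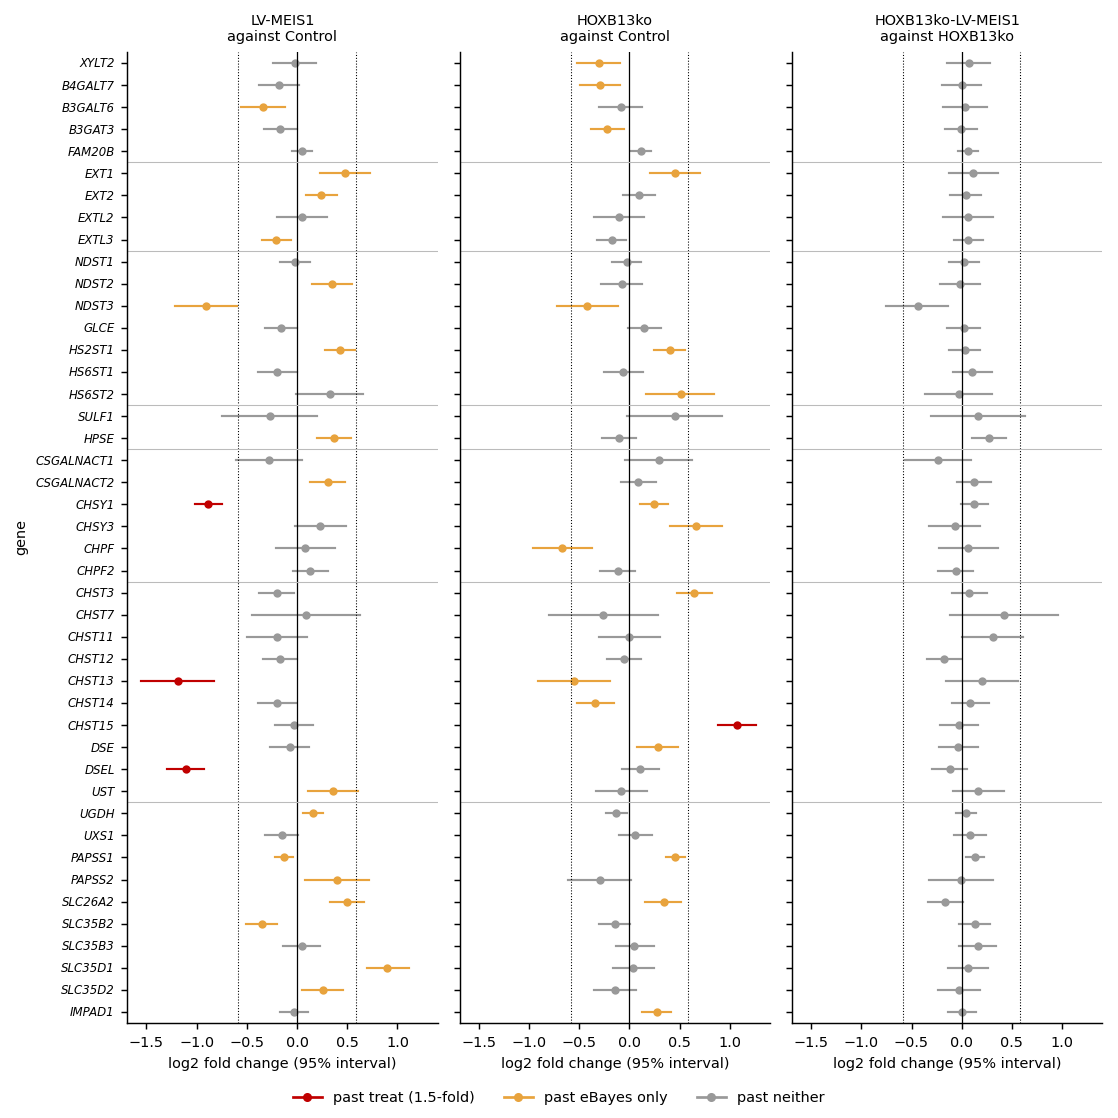
Log2 fold change with its 95% interval for the 44 members in 3 comparisons, with dotted lines at a 1.5-fold change; red points passed treat, orange points passed eBayes only and grey points passed neither. In HOXB13ko-LV-MEIS1 against HOXB13ko all points are grey, and 40 of 44 intervals lie between the dotted lines.

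HOXB13ko-LV-MEIS1 was compared with HOXB13ko to repeat the MEIS1 comparison in lines with the knockout label. No member passed: limma called 0 of 44 by treat (0.00717% of all genes) and 0 of 44 by eBayes (0.0502% of all genes, 0.0215% higher and 0.0287% lower). At an unadjusted p under 0.05 treat and eBayes gave 0 and 5 members, beside 9 and 2070 of all 13951 genes. Only 1 gene of 13951 was called by treat here, so this comparison was nearly empty for all genes. The lowest limma eBayes adjusted p was 0.171, for HPSE. The median size of the change was 0.07, beside 0.09 for all genes, and 40 of the 44 intervals lay within a 1.5-fold change in either direction. The 4 exceptions were NDST3, SULF1, CHST7 and CHST11. NDST3 was 2.13, 1.85 and 1.54 CPM in the libraries labelled HOXB13ko and 1.32, 1.21 and 1.11 CPM after MEIS1 was added to that pool, which did not overlap (-0.44 ± 0.14 (SE), 95% interval -0.75 to -0.14, limma eBayes adjusted p = 0.196). MEIS1 mRNA was lower in HOXB13ko-LV-MEIS1 than in LV-MEIS1, at 29.7 against 47.4 CPM, and its part in the smaller changes was not tested.

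HOXB13ko-LV-MEIS1 was also compared with LV-MEIS1, which shares the LV-MEIS1 libraries with the first comparison and is therefore not independent of it. Limma's treat called 4 of 44 members (9.09%, all higher), against 6.71% of all genes, 3.29% higher and 3.42% lower. These were CHSY1 (1.26 ± 0.06), DSEL (1.10 ± 0.08), CHST15 (1.07 ± 0.09) and CHST3 (0.92 ± 0.08), with limma treat adjusted p of 1.2e-06, 3.4e-04, 9.8e-04 and 0.00955. CHST3 was 16.6, 17.2 and 17.9 CPM in LV-MEIS1 against 31.5, 32.2 and 35.4 CPM in the other line, and the call was lost without replicate 3 of the latter (limma treat adjusted p = 0.0586). By eBayes 17 members were higher and 9 lower (59.1%), against 50.1% of all genes, 24.0% higher and 26.1% lower.

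Among the members past eBayes only in that comparison, SULF1 was 0.609, 0.601 and 0.538 CPM in LV-MEIS1 and 1.23, 1.88 and 1.44 CPM in HOXB13ko-LV-MEIS1 (0.89 ± 0.22, limma eBayes adjusted p = 0.00396). In Control SULF1 was 1.32, 0.677 and 0.544 CPM, so that group alone spanned most of the difference. PAPSS1 was 164, 156 and 160.3 CPM against 261, 259.7 and 269.8 CPM (0.72 ± 0.04, limma eBayes adjusted p = 5.4e-09), and PAPSS2 moved oppositely, from 7.97, 8.50 and 6.73 to 3.46, 5.18 and 5.18 CPM (-0.70 ± 0.15, limma eBayes adjusted p = 0.00129). CHPF was 30.3, 23.6 and 32.1 CPM against 15.9, 16.0 and 21.0 CPM. The mean of PAPSS1 was higher, and that of PAPSS2 lower, in both groups labelled HOXB13ko than in Control or LV-MEIS1.

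The difference of the MEIS1 effects, which sets LV-MEIS1 against Control beside HOXB13ko-LV-MEIS1 against HOXB13ko, was tested directly. CHSY1 was the 1 member called by limma's treat (2.27%, against 2.93% of all genes, 1.31% more positive and 1.62% more negative), with a difference of -1.01 ± 0.09 on the log2 scale (SE; limma treat adjusted p = 0.00769). CHST13 (-1.39 ± 0.24) and DSEL (-0.98 ± 0.12) missed treat (limma adjusted p = 0.0669 and 0.0696) and passed eBayes, and DSEL was also called without replicate 2 of Control, which gave 2 members. In all 10 members (22.7%) passed limma's eBayes, against 34.2% of all genes, 18.0% more positive and 16.2% more negative. SLC35D1 (0.84 ± 0.13), SLC26A2 (0.66 ± 0.11), HS2ST1 (0.40 ± 0.10) and NDST2 (0.37 ± 0.13) had a more positive effect of MEIS1 without the knockout label. SLC35B2 (-0.48 ± 0.10), EXTL3 (-0.27 ± 0.10) and PAPSS1 (-0.26 ± 0.06) had a more negative one. Mean HS2ST1 was 37.9 CPM in Control and 51.2, 50.0 and 51.0 CPM in LV-MEIS1, HOXB13ko and HOXB13ko-LV-MEIS1. Mean SLC26A2 was 28.5, 40.5, 36.2 and 32.1 CPM in the same order of groups. Both were thus already higher than Control with the knockout label before MEIS1, whereas SLC35D1 and NDST2 passed neither test in HOXB13ko against Control.

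EXTL2, NDST1, CSGALNACT1, CHST7, CHST12 and SLC35B3, 6 members in all, passed neither test in any of the 5 comparisons. NDST1 was 121 to 145 CPM over all 12 libraries. CHST7, a chondroitin 6-O-sulfotransferase, had wide intervals, such as -0.12 to 0.96 in HOXB13ko-LV-MEIS1 against HOXB13ko, so a 1.5-fold increase was not excluded for it there. The remaining 26 members passed eBayes in at least 1 comparison, with changes below 1.5-fold in the pairwise ones. The matching shares of all genes over the 5 comparisons were not worked out. In single comparisons eBayes passed 44.5% of all genes (LV-MEIS1 against Control) and 50.1% (HOXB13ko-LV-MEIS1 against LV-MEIS1).

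Other genes of glycosaminoglycan metabolism were examined from a list of 54, of which 42 were listed. Limma's eBayes passed 13 of them higher and 7 lower in LV-MEIS1 against Control and 8 higher and 5 lower in HOXB13ko against Control. These shares, 47.6% and 31.0%, were near the 44.5% and 32.9% of all genes. Between the HOXB13ko and HOXB13ko-LV-MEIS1 lines 0 of them passed, beside 0.0502% of all genes. Genes of this list past eBayes only were picked for naming after their values were seen. In LV-MEIS1 against Control, HYAL1, a lysosomal hyaluronidase, was the 1 gene called by treat (2.38%, against 3.99% of all genes). It was 10.1, 9.73 and 8.56 CPM in Control, 2.65, 2.26 and 2.89 CPM in LV-MEIS1 and 8.75 to 10.8 CPM in the 6 libraries with the knockout label. Its log2 fold change was -1.69 ± 0.11 (SE; limma treat adjusted p = 5.1e-06), and the difference of the MEIS1 effects was -1.63 ± 0.16 (limma treat adjusted p = 5.3e-04). Of 14 lysosomal enzymes and factors that break down the chains, 6 rose by eBayes and 0 fell (42.9% passed, against 44.5% of all genes, 23.2% higher and 21.3% lower), with ARSB (0.63 ± 0.10) and GALNS (0.51 ± 0.10) the largest. CEMIP, which takes part in hyaluronan breakdown, fell by 1.09 on the log2 scale (limma eBayes adjusted p = 0.00228). NDST4, a paralog of NDST3, also fell by eBayes (adjusted p = 7.3e-04), and neither passed treat. In LV-MEIS1 CEMIP was 0.112, 0.682 and 0.592 CPM and NDST4 0.129, 0.333 and 0.481 CPM. In replicate 1 both lay below the 0.166 CPM that 3 reads are worth there. Of the 6 listed hyaluronan genes, 1 rose and 4 fell by eBayes (83.3%, against 44.5% of all genes). The 1 that rose was TMEM2 (0.43 ± 0.07, limma eBayes adjusted p = 2.3e-04). Of the 14 lysosomal genes, 1 rose and 3 fell by eBayes in HOXB13ko against Control (28.6% passed, against 32.9% of all genes).

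With the knockout label, CHST2, a sulfotransferase of keratan sulfate and related sugars, was the 1 gene of that list called by treat (2.38%, against 1.41% of all genes). It was 1.74, 1.82 and 1.70 CPM in Control and 5.09, 4.78 and 4.71 CPM in HOXB13ko (1.25 ± 0.14, limma treat adjusted p = 0.0142). In LV-MEIS1 CHST2 was 3.65, 2.72 and 2.41 CPM, also higher than in Control (0.59 ± 0.14, limma eBayes adjusted p = 0.00363). Of 9 genes for UDP sugar supply, 6 rose and 1 fell by eBayes in HOXB13ko against Control, where 16.5% of all genes were higher and 16.4% lower. GFPT1, which controls entry into hexosamine synthesis, rose by 0.79 ± 0.06, PGM3 by 0.38 ± 0.05, GNPNAT1 by 0.37 ± 0.06 and UAP1 by 0.29 ± 0.05. In LV-MEIS1 against Control 1 of the 9 rose and 1 fell (22.2% passed, against 44.5% of all genes).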

How the data were processed

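Values were the CPM that the authors deposited in 4 tables, 1 per group. To make them, the authors trimmed 50 bp single-end reads (Trimmomatic 0.38), estimated transcript counts on Ensembl GRCh38.p12 with kallisto 0.43.1, summed them to genes with tximport 1.8.0, removed genes with low counts and normalised the libraries in edgeR 3.22.2. Strand was not used, and reads shared by transcripts were divided. Of 13993 rows, 42 exact repeats were dropped. The files do not state depth. Steps between low CPM gave 17150000 to 28650000 reads per library, but only 40.4% to 54.7% of values under 1 CPM lay within 0.05 of a whole read, so no count model was used. Linear models (limma 3.58.1, R 4.3.3) were fitted to log2(CPM + 0.5) of all 13951 genes and 12 libraries with 1 mean per group. Fold changes on this scale understate those of low genes. Treat against 1.5-fold and eBayes, both with a trended prior, were adjusted over all genes by Benjamini-Hochberg at 0.05. Members with values per library were those past treat in any comparison, or past eBayes with at least a 1.5-fold change in a pairwise one. The script was tested on simulated data. Positions came from GENCODE GRCh38 for 97.9% of genes, and 15 neighbours per side were taken. The members and lists were chosen with earlier results of these data known. Alternatives were other pseudocounts (0.1 and 1), a minimum mean of 1 CPM, 3 scalings, a replicate block, no prior trend, an adjusted p under 0.01, fits of 6 libraries and leaving out each library. Figures were drawn with matplotlib 3.10.9. The values of some genes of the marker and pathway lists are not reported here.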

Additional observations from a re-analysis of the deposited data

Results flagged for a closer look

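The change in LV-MEIS1 against Control differed from that in HOXB13ko-LV-MEIS1 against HOXB13ko for 10 members. This was by limma's eBayes test of the difference itself over all genes, where 34.2% of all genes passed. Each genotype was 1 derived line or pool, so differences of derivation cannot be told apart from an effect of MEIS1 or HOXB13. The differences in log2 fold change were -1.39 for CHST13, -1.01 for CHSY1, -0.98 for DSEL, -0.48 for SLC35B2, -0.27 for EXTL3 and -0.26 for PAPSS1, and 0.84 for SLC35D1, 0.66 for SLC26A2, 0.40 for HS2ST1 and 0.37 for NDST2. Of these, CHSY1 also passed treat. Groups of 3 libraries were too small to be searched for outlying samples.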

How the results depend on the processing

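Of 439 alternative values for the members given per library, 424 kept their direction and their side of the threshold, 15 lost the threshold and 0 reversed. Of those 15, 14 were CHST13 in LV-MEIS1 against Control, whose log2 fold change was -1.71 with a pseudocount of 0.1, -0.87 with a pseudocount of 1 and -0.90 with quantile normalization, and whose limma treat adjusted p ranged from 0.00166 to 0.566. The other was CHST3 in HOXB13ko-LV-MEIS1 against LV-MEIS1. At an adjusted p under 0.01, 12 instead of 20 members passed eBayes in LV-MEIS1 against Control and 10 instead of 18 in HOXB13ko against Control. In the difference of the MEIS1 effects, treat called 2 members (CHSY1 and CHST13) with a pseudocount of 0.1 and with a prior without a trend, and 1 to 2 when single libraries were left out. Over the same libraries left out, treat called 2 to 3, 1 to 1, 0 to 0 and 3 to 4 members in the pairwise comparisons in the order of the report. In LV-MEIS1 against Control, treat called SLC35D1 as well with a pseudocount of 0.1, with libraries scaled to an equal sum, and without Control replicate 1 or LV-MEIS1 replicate 3, and NDST3 as well with a prior without a trend. The scalings moved the median of all genes by at most 0.040. Replicate numbers did not pair the libraries, as the deviations of libraries with the same number correlated between -0.21 and 0.15. With the replicate block, treat called 2 members in LV-MEIS1 against Control (CHST13 was lost), 1 in HOXB13ko against Control, 0 in HOXB13ko-LV-MEIS1 against HOXB13ko, 4 in HOXB13ko-LV-MEIS1 against LV-MEIS1 and 1 in the difference, and eBayes 20, 16, 0, 23 and 8. Depth limits members at low levels, such as CHST13 and SULF1, whose means over the 12 libraries are near 1 CPM.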
